A study of Rattus norvegicus with 23 samples.

Results

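The oxidative phosphorylation genes described here were taken by their annotated symbols: Nduf for complex I, Sdha to Sdhd for complex II, Uqcr for complex III, Cycs for cytochrome c, Cox4 to Cox8 for complex IV and Atp5 for complex V. The rule used no measured value. It found 32 probes for 30 genes, of 5088 probes and 4153 named genes on the array. Complex V had 14 genes, complex IV 9 and complex I 5, and the list was completed by Cycs and by Ndufaf3, a complex I assembly factor that the pattern also takes. No Sdh or Uqcr symbol was found among the annotated probes, so complexes II and III were not analysed here. RefSeq lists Ndufs6-ps1 and Cox6c-ps1 as pseudogene loci, so a signal there may come from the parent gene. Cox6c carried 3 probes, which share a gene and are not independent measurements of it.

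Oxidative phosphorylation is the route by which mitochondria turn the energy of nutrients into ATP. Complexes I to IV pass electrons to oxygen, with cytochrome c carrying them into complex IV. Complexes I, III and IV pump protons across the inner membrane as they do so, and complex V, the ATP synthase, makes ATP from the returning protons. Sensory neurons depend on this supply along axons of great length, and the subunits measured here are encoded in the nucleus.

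Each array compared dorsal root ganglia (DRG) of the lumbar levels L4 and L5 from Long-Evans rats whose sciatic nerve had been transected at postnatal days 20 to 24 with intact ganglia, a lesion studied because it raises the growth capacity of these neurons. Ganglia were taken 4, 8, 12, 18, 24, 48, 148 or 296 h after the transection, with 3 arrays at each time and 2 arrays at 296 h. Lesioned RNA was labelled with Cy5 and intact RNA with Cy3 on every array, through dendrimers that carry the dye, and no dyes were exchanged. The second array at 296 h has 294 h in its time label. Some label text speaks of cultured DRG cells and of cAMP, against the surgical treatment that the time and lesion labels give. Whether replicate arrays stand for different animals is not stated, so p-values measure the spread between these samples alone.

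All values below are log2 ratios of lesioned over intact, so 1 is a 2-fold higher level in lesioned ganglia and 0 is no difference. Full arrays (17) measured 4945 to 5011 probes. The 6 sparse arrays measured 2063 to 4353 and had a wider spread (SD of all log2 ratios 1.22 to 1.61, against 0.51 to 0.91), and they were replicates 2 and 3 at 48 h, all of 148 h and replicate 2 at 296 h. Time and array class therefore overlap, and calls at 148 h cannot be told apart from the class of array. Ratios carry no level of expression, so the tissue could not be checked by the level of its markers. At 148 h, when 29.2% of all probes passed, 4 of 5 tested injured-neuron markers were higher, 8 of 12 sensory-neuron probes lower and 2 of 3 macrophage probes higher. With each array weighted by its precision the calls of Vip, Uchl1, Scn10a, Nefm and 1 of the Nefl probes were lost (adjusted p = 0.18, 0.40, 0.11, 0.27 and 0.11). In whole ganglia, fewer cells of a type and less RNA per cell cannot be told apart.

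The oxidative phosphorylation genes differed in both directions around a median near 0, with Atp5f1b lowest (median -0.87 over the 23 arrays). The median of the group's log2 ratios was 0.08 at 4 h, 0.05 at 8 h, 0.09 at 12 h, 0.05 at 18 h, 0.02 at 24 h, 0.02 at 48 h and 0.05 at 296 h. The lowest median was -0.17 at 148 h, where 21 of 30 tested probes were below 0 and all probes tested at that time had a median of 0.04. Sizes were also small: the median absolute log2 ratio of the group lay between 0.13 and 0.26 over the 8 times, and that of all probes between 0.20 and 0.55. The group was measured more completely than the array as a whole. Of its 32 probes, 27 had a value on all 23 arrays (84.4%, against 29.5% of all probes), and on the sparse arrays 94.3% of its values were present, against 64.7%. The part of this difference in the smaller spread was not tested.

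**Figure D1:**
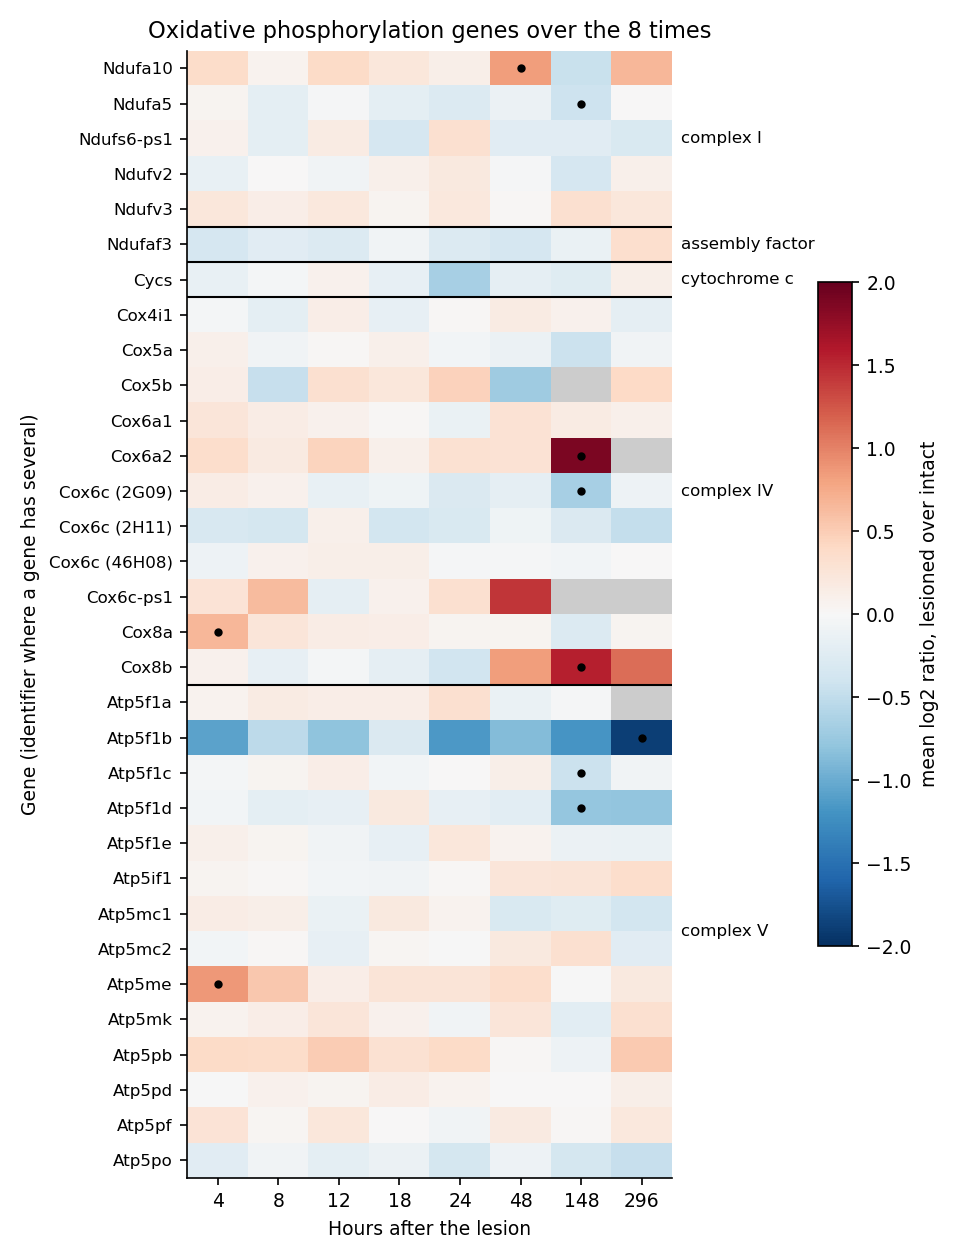
Mean log2 ratio of lesioned over intact for each oxidative phosphorylation probe (rows, by complex) at each of the 8 times (columns). Red is higher and blue lower in lesioned ganglia, grey marks a time with fewer than 2 arrays, and dots mark an adjusted p under 0.05 by limma. Most cells are pale, and the strong colours belong to Atp5f1b (to -1.88), Cox8b (to 1.56), Cox6a2 (1.89) and Cox6c-ps1 (1.43 at 48 h).

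Across single times, few of these genes passed the test (limma, adjusted p under 0.05 over all probes tested). At 4 h 2 of 32 probes passed, Atp5me and Cox8a, both higher, where 0.558% of all probes did. No probe of the group passed at 8 h (all probes 0.42%), 12 h (0.139%), 18 h (0.359%) or 24 h (1.42%). At an unadjusted p under 0.05, which some probes pass with no effect, there were 2, 1, 0 and 4 of the 32 probes at those times. At 48 h 1 of 32 passed (3.12%, against 15.8% of all probes), at 148 h 6 of 30 (20%, against 29.2%) and at 296 h 1 of 29 (3.45%, against 9.32%). In a fit that weights each array by its precision, the 2 calls at 4 h were kept (all probes 1.93%), Atp5me also passed at 8 h (adjusted p = 0.0232, all probes 1.28%) and Atp5pb at 12 h (0.0397, all probes 3.65%), and no probe of the group passed at 48 h (all probes 4.07%), 148 h (9.13%) or 296 h (0.141%).

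**Figure D2:**
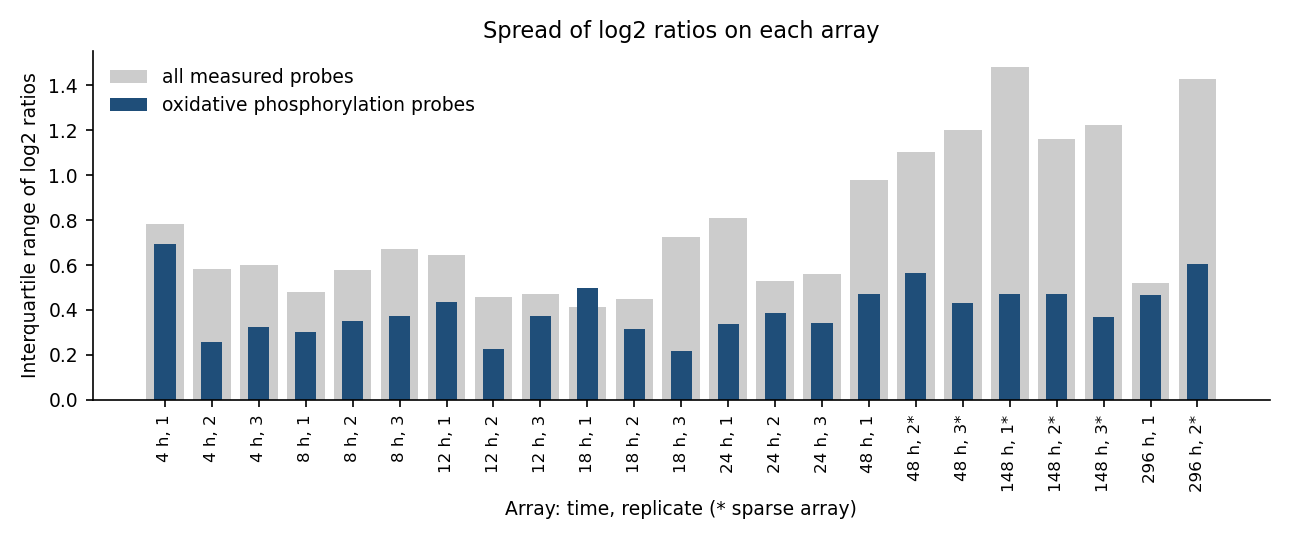
Interquartile range of log2 ratios on each of the 23 arrays, for all measured probes (grey bars) and for the oxidative phosphorylation probes (blue bars), with sparse arrays starred. The group spans 0.22 to 0.69 on full and 0.37 to 0.61 on sparse arrays, while all probes span 0.41 to 0.98 and 1.10 to 1.48.

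The early rise was carried by Cox8a, the ubiquitous form of a small complex IV subunit, and Atp5me, a small membrane subunit of ATP synthase. Atp5me had log2 ratios of 1.12, 0.75 and 0.73 on the 4 h arrays, and Cox8a had 0.88, 0.54 and 0.57. For each gene these 3 values were above those of all 20 later arrays. At 4 h Atp5me was 1.82-fold higher in lesioned ganglia (log2 0.87 ± 0.22, SD, n = 3, limma adjusted p = 0.00327) and Cox8a 1.58-fold (0.66 ± 0.19, n = 3, limma adjusted p = 0.0278). Without replicate 1 at 4 h neither passed (limma adjusted p = 0.069 for Atp5me and 0.22 for Cox8a), and Cox8a also failed without replicate 2 (0.071) or replicate 3 (0.10). Fitted on the 4 h arrays alone, without the spread of the other times, neither passed (0.32 for Atp5me and 0.35 for Cox8a).

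After 4 h Atp5me came down until 12 h, and its mean was higher again at 18, 24 and 48 h. Its log2 ratios were 0.39, 0.56 and 0.68 at 8 h, 0.13 on each of the 3 arrays at 12 h, 0.31, 0.13 and 0.34 at 18 h and 0.09, 0.28 and 0.42 at 24 h. Later values were 0.34, 0.55 and 0.17 at 48 h, -0.01, 0.18 and -0.20 at 148 h, and 0.31 and 0.09 at 296 h. It was above 0 on 21 of 23 arrays, and both exceptions were at 148 h.

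Cox8a fell to lower values than Atp5me. Its log2 ratios were 0.39, 0.17 and 0.18 at 8 h, 0.24, 0.11 and 0.08 at 12 h, 0.01, 0.15 and 0.24 at 18 h and -0.08, 0.17 and 0.08 at 24 h. At 48 h they were -0.09, 0.13 and 0.14, at 148 h -0.27, -0.05 and -0.49, and at 296 h 0.01 and 0.10. All 3 arrays at 148 h were below 0, the single time at which that held.

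**Figure D3:**
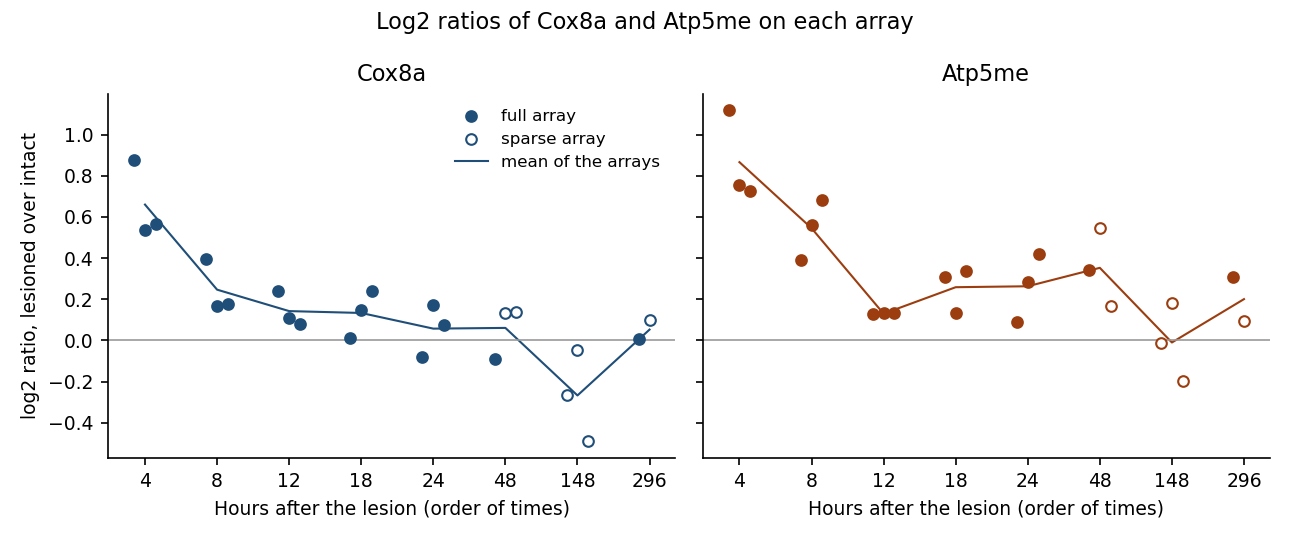
Log2 ratio of lesioned over intact for Cox8a (left) and Atp5me (right) on each array, with times in order on the horizontal axis, filled points for full arrays, open points for sparse arrays and a line through the mean of each time. Both genes are highest at 4 h (means 0.66 and 0.87) and lowest at 148 h (means -0.27 and -0.01).

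The change from early to late, the mean of 48, 148 and 296 h minus the mean of 4, 8 and 12 h, was tested on 2327 probes, 28 of them in this group. It passed for 3 of the 28 (10.7%, against 12.2% of all probes). Cox8a changed by -0.40 ± 0.10 (SE, 17 arrays, limma adjusted p = 0.0150) from an early mean of 0.35 to a late mean of -0.05. Its early arrays ran from 0.08 to 0.88 with a median of 0.24 and its late arrays from -0.49 to 0.14 with a median of -0.02, so the ranges overlapped. Atp5me changed by -0.33 ± 0.10 (SE, 17 arrays, limma adjusted p = 0.0452), with early arrays from 0.13 to 1.12 and late arrays from -0.20 to 0.55, which overlapped too. The third was Cox8b, described below. With array weights Cox8b alone passed (all probes 6.66%), and adjusted p was 0.068 for Cox8a and 0.18 for Atp5me. The call of Atp5me was also lost in 18 of the 23 fits that left out 1 array and in 7 of 10 other settings. Over full arrays alone the differences were -0.39 for Cox8a and -0.19 for Atp5me. Late then holds only replicate 1 at 48 h and replicate 1 at 296 h, with no array at 148 h, so only the sizes are given. A constant dye effect of a probe cancels in this difference, unlike in the values at single times.

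Cox8a and Atp5me moved together over the arrays. Pearson's r of their log2 ratios was 0.83 across the 23 arrays (Spearman's rho 0.64), and among 3517 probes measured on at least 20 arrays each was the probe most like the other. The relation was weaker without the 4 h arrays, the time at which both genes were called (r = 0.61, rho 0.45, 20 arrays). Without the 2 arrays farthest from the median of Cox8a r was 0.67 (21 arrays). The pair was named with earlier results of these data known, so the relation is not a test. The relation is given as a description, since both values of a pair come from the same array and share its hybridisation. Outside the group, Cox8a was most like Erbb2 (0.76), Adcy7 (0.70), Pygm (0.69), Cblb (0.69) and Adora2a (0.68). Atp5me was most like Nudc (0.78), Grip1 (0.71), Cnn1 (0.69), Arc (0.68) and Cald1 (0.68).

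The promoters of this pair are shown because the genes moved together, and that of Cox8b because this muscle form moved otherwise. NRF1 and the ETS factor GABPA are transcription factors known to act on many nuclear genes of the respiratory chain. Each sequence runs 5′ to 3′ on the strand of its gene, from 250 bases before the start site to 50 after, as RefSeq gives it in build GRCr8. Capitals mark matches to the motifs searched on both strands, GCGCATGC (NRF1 core, other strand GCATGCGC), CCGGAAGT (ETS or GABPA site, other strand ACTTCCGG) and the TATA box (TATAAA on either strand).
Atp5me, chr14:1464610-1464909, + strand: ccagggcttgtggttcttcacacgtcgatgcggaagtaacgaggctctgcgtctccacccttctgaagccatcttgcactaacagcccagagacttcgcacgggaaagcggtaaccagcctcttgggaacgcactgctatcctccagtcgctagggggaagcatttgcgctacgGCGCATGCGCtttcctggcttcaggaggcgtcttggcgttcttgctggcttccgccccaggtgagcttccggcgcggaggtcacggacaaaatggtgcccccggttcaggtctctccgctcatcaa
Cox8a, chr1:213833574-213833873, - strand: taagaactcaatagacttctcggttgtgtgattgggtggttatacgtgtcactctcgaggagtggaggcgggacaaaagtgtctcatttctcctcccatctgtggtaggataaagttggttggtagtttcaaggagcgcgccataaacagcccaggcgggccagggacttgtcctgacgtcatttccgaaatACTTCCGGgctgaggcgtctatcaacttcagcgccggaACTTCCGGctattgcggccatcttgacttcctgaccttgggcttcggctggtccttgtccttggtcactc
Cox8b, chr1:205408224-205408523, - strand: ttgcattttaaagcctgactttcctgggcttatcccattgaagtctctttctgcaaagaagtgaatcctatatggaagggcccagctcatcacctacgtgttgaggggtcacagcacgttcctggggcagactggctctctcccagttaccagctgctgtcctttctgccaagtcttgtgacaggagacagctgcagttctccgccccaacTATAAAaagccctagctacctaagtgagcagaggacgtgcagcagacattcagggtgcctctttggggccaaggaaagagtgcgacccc

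In Atp5me the NRF1 core matched on both strands in overlapping places that begin at -76 and -74 from the start site of the stretch shown. RefSeq begins the Atp5me gene itself farther upstream, at 1464788 and within that stretch, so these distances hold for the start site used here alone. Cox8a held the ETS site on the other strand at -58 and -20, and Cox8b held a TATA box at -39. Of the 30 genes, 25 had a promoter in the table. The NRF1 core was found in 4 of them, Atp5mc2, Atp5me, Atp5po and Cycs (16%), and in 2.47% of all 33469 promoters of the same length. The ETS site was found in 3, Atp5f1a, Cox5b and Cox8a (12%, against 3.81%), and the TATA box in 2, Atp5mk and Cox8b (8%, against 14.2%). Among the 4 genes with the NRF1 core, Atp5me was higher and Atp5po lower in the mean over the times, so promoters with the same letters belonged to genes of opposite sign. A match of letters is a description and not a binding site.

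Complex I, which takes electrons from NADH, was represented by 5 genes, and its median was -0.33 at 148 h and between -0.02 and 0.19 at the other times. Ndufa10, an accessory subunit, had log2 ratios of 0.90, 1.06 and 0.57 at 48 h. All 3 arrays were high, and the mean was 1.79-fold (0.84 ± 0.25, SD, n = 3, limma adjusted p = 0.0223). It did not pass with array weights (adjusted p = 0.15), nor without replicate 1 (0.064) or replicate 2 (0.10) of 48 h. The same probe had -0.03, -0.63 and -0.67 at 148 h and 0.15 and 1.19 at 296 h, so neighbouring times were of opposite sign. Ndufa5, another accessory subunit, was lower at 148 h, with log2 ratios of -0.44, -0.55 and -0.26. All 3 were below 0 (-0.42 ± 0.14, SD, n = 3, limma adjusted p = 0.0264). That call was lost with array weights (0.28) and without replicate 1 (0.090) or replicate 2 (0.086) of 148 h. Ndufv2, a core subunit that holds an iron-sulfur cluster, ran from -0.81 to 0.36 and passed no test.

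Cytochrome c (Cycs), which also triggers apoptosis when released from mitochondria, was lowest at 24 h. Its log2 ratios there were -0.80, -0.40 and -0.78, and 16 of all 23 arrays were below 0. The mean of 24 h was -0.66 ± 0.23 (SD, n = 3, limma adjusted p = 0.0959) and passed with array weights only (adjusted p = 0.0261, all probes 6.27%).

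Complex IV passes electrons to oxygen, and Cox6c, a small subunit, was lower by 1 of its 3 probes at 148 h. Probe 2G09 read -0.76, -0.73 and -0.49, all below its 20 other values. The mean was -0.66 ± 0.15 (SD, n = 3, limma adjusted p = 0.00485), and it passed with any 1 of the 23 arrays left out (highest adjusted p = 0.0341), but not with array weights (0.19). The other probes of the gene did not pass at 148 h. Probe 2H11 read -0.37, -0.26 and -0.26 at 148 h, close to its median of -0.29 over all arrays, and probe 46H08 read -0.02, -0.18 and 0.05. The ubiquitous subunits Cox4i1, Cox5a and Cox6a1 passed no test. Cox5a was between -0.32 and 0.23 on 22 arrays and -1.56 on replicate 3 at 148 h.

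The 2 forms of complex IV subunits known from heart and skeletal muscle, Cox8b and Cox6a2, gave the highest mean ratios among the subunit genes. Cox8b was near 0 through the first day, from -0.76 to 0.29 on 15 arrays. It then read 0.16, 1.93 and 0.40 at 48 h, 1.28 and 1.83 on the 2 arrays of 148 h that measured it, and -0.01 and 2.24 at 296 h. Every value above 0.29 was on a sparse array. At 148 h it was 2.94-fold higher (1.56 ± 0.39, SD, n = 2, limma adjusted p = 0.0119), and late minus early was 1.20 ± 0.30 (SE, 16 arrays, limma adjusted p = 0.0169, and 0.0257 with array weights). Full arrays alone, where late holds only replicate 1 at 48 h and replicate 1 at 296 h, gave a late minus early of 0.11. A term for array class in the fit gave 0.09 (limma adjusted p = 0.96), and without replicate 2 at 296 h it was 0.83.

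Cox6a2 rested on a single array. At 148 h it read -0.15 on replicate 2 and 3.92 on replicate 3 (mean 1.89 ± 2.88, SD, n = 2, limma adjusted p = 0.0336), and the next highest value on any array was 1.20. With array weights adjusted p was 0.14. Skeletal muscle genes moved on the same array. Of 14 skeletal muscle markers, 9 had probes, and their median log2 ratio was 2.29 on replicate 3 at 148 h, 0.55 on replicate 2 at 148 h and between -0.43 and 0.39 on the other arrays. On replicate 3 at 148 h 4 of the 6 measured markers were above 1. On replicate 3 at 148 h the fast troponin Tnnc2 read 4.34, troponin Tnnt3 5.02, myoglobin (Mb) 2.61 and muscle creatine kinase (Ckm) 1.97, while Pvalb read -0.67 and Tnni2 -0.48. On replicate 2 at 148 h the muscle actin Acta1 read -3.07. On replicate 2 at 296 h, where Cox8b was highest, 4 muscle markers were measured, with a median of -0.19 and none above 1. On replicate 2 at 48 h, where Cox8b read 1.93 and Cox6a2 1.20, 2 of 9 were above 1 (median 0.17). On replicate 1 at 4 h 3 of 9 were above 1 while Cox8b read 0.27. The part of muscle RNA in the values of Cox8b and Cox6a2 was not tested.

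**Figure D4:**
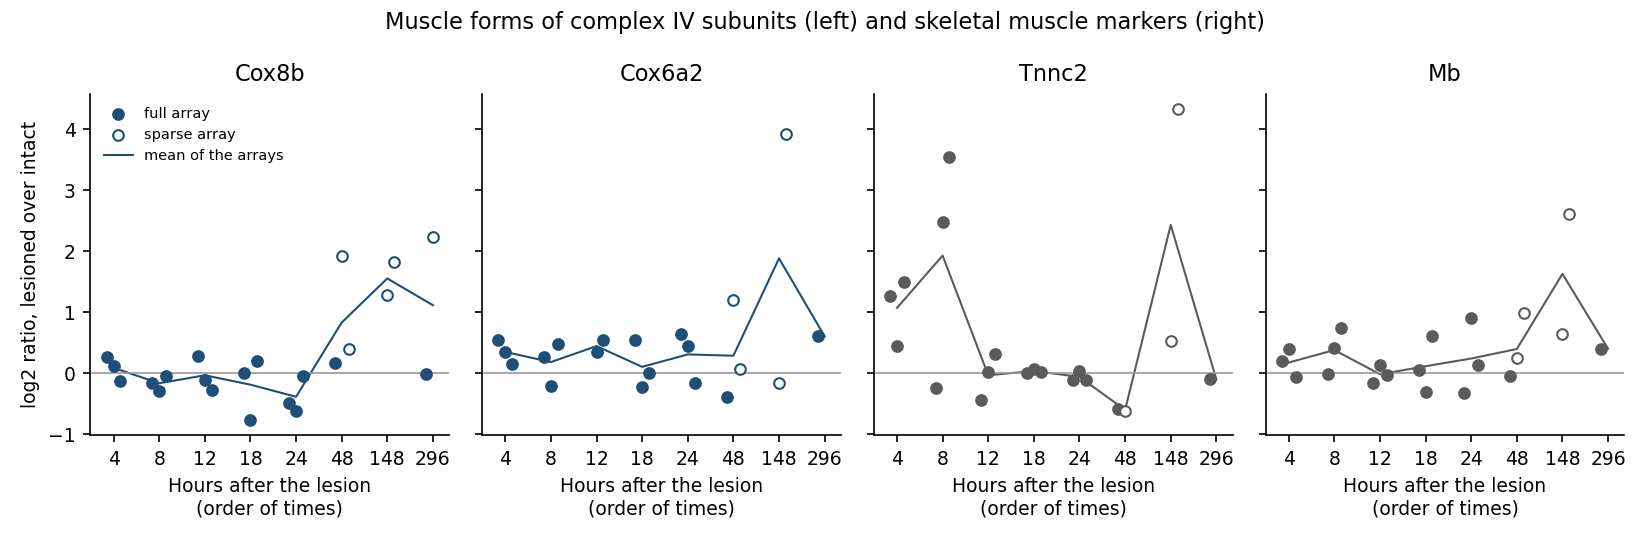
Log2 ratio of lesioned over intact on each array for the muscle forms Cox8b and Cox6a2 (left) and for the skeletal muscle markers Tnnc2 and Mb (right), with filled points for full arrays, open points for sparse arrays and a line through the mean of each time. Replicate 3 at 148 h is high in all 4 panels (1.83, 3.92, 4.34 and 2.61), while Tnnc2 is also high on 2 arrays at 8 h (2.48 and 3.55).

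In complex V, the 5 genes of the F1 part, where ATP is formed, were all below 0 at 148 h. They ran from -1.18 to -0.02 with a median of -0.44, so some were close to 0. The 4 with enough arrays at 296 h were below 0 too, from -1.88 to -0.07 (median -0.46). In the whole group 21 of 30 probes were below 0 at 148 h. Atp5f1b, the catalytic beta subunit, stood apart from the whole group. It was below 0 on 20 of 23 arrays, with a lowest value of -2.63, a median of -0.87 and a highest of 0.19. At 296 h it read -2.17 and -1.59, 3.69-fold lower (-1.88 ± 0.41, SD, n = 2, limma adjusted p = 0.0415). That call was narrow, since adjusted p was 0.44 with array weights and rose to between 0.050 and 0.55 in 11 of the 23 fits that left out 1 array. Its arrays varied widely within a time, from -2.63 to -0.11 at 4 h and from -2.13 to -0.15 at 148 h.

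Atp5f1d, a subunit of the central stalk, read -1.67, -0.28 and -0.35 at 148 h. Replicate 1 was much lower than the others (-0.77 ± 0.79, SD, n = 3, limma adjusted p = 0.0114), and without it the value was -0.31 (adjusted p = 0.23). Atp5f1c, the central shaft, read -0.50, -0.51 and -0.31, a narrow and uniformly low set (-0.44 ± 0.11, SD, n = 3, limma adjusted p = 0.0421). Array weights gave 0.24 for Atp5f1d and 0.34 for Atp5f1c, and Atp5f1c also failed in 9 of 23 fits that left out 1 array. Atp5f1a, the partner of Atp5f1b in the catalytic head, ran from -0.50 to 0.57 and passed no test. The difference between them was not tested.

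The mean over all times asked for a lesion effect that did not depend on the time, and 14 of 28 tested probes of the group passed (50%, against 48.5% of all probes), 8 higher and 6 lower. The share was near that of all probes. With array weights 10 passed (all probes 42.3%). A dye effect of a probe adds to this mean and could not be separated from the lesion. Atp5f1b was the lowest at -0.97 ± 0.16 (SE, 23 arrays, limma adjusted p = 0.000138), or 1.96-fold lower. Atp5me (0.33 ± 0.04, SE, limma adjusted p = 1.9e-05) and Atp5pb (0.30 ± 0.05, SE, limma adjusted p = 0.000203) were the highest apart from Cox8b.

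The peripheral stalk, which holds the F1 part in place, showed both signs. Atp5pb, its b subunit, was above 0 on 20 of 23 arrays (from -0.28 to 0.82, median 0.27), and the 3 exceptions were late. Atp5po, the subunit at the top of the stalk, was below 0 on 20 of 23 arrays (from -0.63 to 0.22, median -0.22) with a mean over the times of -0.23 ± 0.05 (SE, limma adjusted p = 0.00142). Atp5pf was higher by a small amount (0.11, limma adjusted p = 0.0435), and Atp5pd passed no test. The calls of Atp5me, Atp5pb, Atp5po and Atp5f1b in the mean over the times were kept in all 10 other settings and in all 23 fits that left out 1 array.

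The other calls in the mean over the times were smaller than 0.4 in size. Cox8b was 0.35 (limma adjusted p = 0.0326) and turned to -0.07 over full arrays alone, none of which is at 148 h. It turned to -0.06 with a term for array class. Ndufa10 was 0.28, Ndufv3, an accessory subunit of complex I, 0.18, Cox8a 0.14 and the ATP synthase inhibitor Atp5if1 0.10. Lower were Atp5f1d (-0.27), Cox6c by probe 2H11 (-0.26) and probe 2G09 (-0.15), and Ndufa5 (-0.14), whereas Cox6c probe 46H08 was at 0.02 and did not pass. Over the 23 arrays Ndufa10 ran from -0.67 to 1.19 (median 0.36), Ndufv3 from -0.26 to 0.54 (median 0.21), Atp5pf from -0.27 to 0.46 (median 0.15) and Atp5if1 from -0.23 to 0.40 (median 0.05). Cox6c probe 2H11 was below 0 on 21 of 23 arrays, and its highest value, 1.07, was on replicate 1 at 12 h. Atp5if1, Atp5pf, Ndufv3 and Cox6c probe 2G09 did not pass with array weights.

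**Figure D5:**
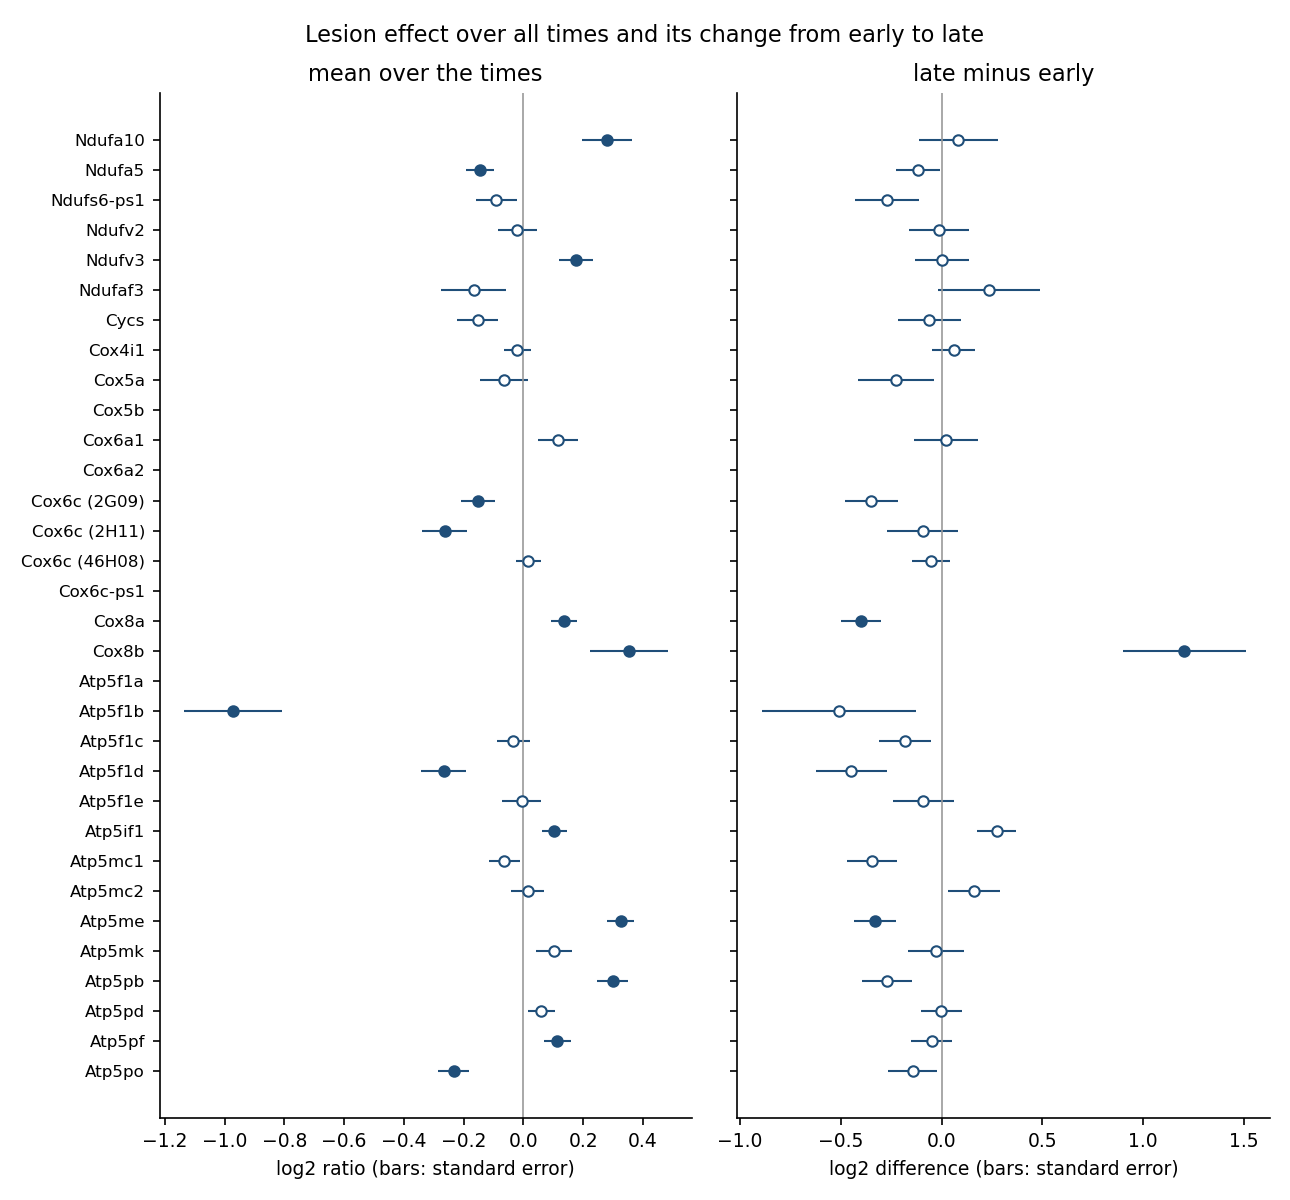
Mean log2 ratio over the 8 times (left) and late minus early difference (right) for each oxidative phosphorylation probe, with standard errors as bars and filled points where the limma adjusted p was under 0.05. On the left Atp5f1b lies far below the rest at -0.97, and on the right Cox8b lies far above at 1.20 while 20 of 28 points are below 0.

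The moderated F-test, which asks for any difference between the times, passed for none of the 28 probes by limma (5.07% of all probes), and 5 had an unadjusted p under 0.05. Atp5me and Cox8a came nearest, each with an adjusted p of 0.0592. With array weights none passed either. In late minus early the group's median was -0.08, with 20 of 28 probes below 0, where all probes had a median of 0.04. Complex V contributed most of these, with 11 of 13 below 0 and a median of -0.14.

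The probes not yet described were the remaining subunits of complex V, Cox5b, both pseudogene loci and Ndufaf3. Atp5mc1 and Atp5mc2, which encode the same mature ring subunit, ran from -0.73 to 0.37 and from -0.57 to 0.44. Atp5f1e and Atp5mk passed no test, with lowest values of -0.54 and -0.44 and highest of 0.83 and 0.78. Cox5b, a complex IV subunit, ran from -1.81 to 0.83. Cox6c-ps1 was measured on 18 arrays and reached 2.72 on replicate 2 at 48 h, and Ndufs6-ps1 ran from -0.57 to 0.77. Ndufaf3 was below 0 on 18 of 23 arrays, with a mean over the times of -0.17 (limma adjusted p = 0.216).

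Among genes that control mitochondrial gene sets, Ppargc1a fell. It encodes PGC-1alpha, a coactivator that works with NRF1 and other factors on genes of the respiratory chain. It was below 0 on all 23 arrays. It read -1.54, -1.33 and -1.31 at 24 h, -1.99, -1.67 and -3.18 at 48 h, -3.85, -2.26 and -4.08 at 148 h, and -1.41 and -1.04 at 296 h. The lowest values were thus at 148 h, where it was 10.5-fold lower (-3.40 ± 0.99, SD, n = 3, limma adjusted p = 2.1e-06), and with array weights adjusted p was 0.000414. Late minus early was -1.43 ± 0.28 (SE, limma adjusted p = 0.00303). All arrays at 148 h were sparse, and on the late full arrays Ppargc1a read -1.99 (replicate 1 at 48 h) and -1.41 (replicate 1 at 296 h). Time and array class therefore overlap in the size of this fall too. At 148 h the median of the oxidative phosphorylation genes was -0.17, as given above, and a link between it and Ppargc1a was not tested. Tfam, which maintains mitochondrial DNA, was higher at 48 h, with 2.10 and 1.53 on the 2 arrays that measured it (limma adjusted p = 0.000242). These were the 2 genes with a probe of the 11 on that list. Of the probes whose identifier begins with 36, as that of Ppargc1a does, 48 of 69 tested passed in the mean over the times (69.6%), and the part of position on the array was not tested.

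Other pathways of energy metabolism are given by their calls. Of 17 further respiratory chain genes 2 had probes. The copper chaperone Cox17 was lower at 148 h (-0.65, limma adjusted p = 0.0014, and 0.0864 with array weights). In the mean over the times both passed, Cox17 lower (-0.11, limma adjusted p = 0.0492, and 0.14 with array weights) and the assembly factor Surf1 higher (0.40, limma adjusted p = 0.00167). Of 22 genes of the tricarboxylic acid cycle and pyruvate entry 8 had probes. In the mean 2 of 2 tested passed (all probes 48.5%), Pdha1 higher (0.57) and Idh3g lower (-0.29). At 148 h 2 of 5 passed (all probes 29.2%), Dlst (1.69 ± 2.13, SD, n = 2, limma adjusted p = 0.0149) and Idh3g (-0.48, 0.0263). At 296 h 1 of 3 passed (all probes 9.32%), Pdha1 (0.99, n = 2, limma adjusted p = 0.0260). With array weights these calls at single times were lost (adjusted p = 0.086, 0.32 and 0.36). Of 14 mitochondrial carriers and pores 12 had probes and none passed at a single time. In the mean 4 of 11 tested passed, where 48.5% of all probes did, the outer membrane channel Vdac1 (-0.71), the ATP carrier Slc25a4 (-0.23), the mitochondrial creatine kinase Ckmt1 (0.27) and Ucp2 (0.13, adjusted p = 0.10 with array weights). The glycolysis list had 72 probes for 20 genes, with many probes for some, and 15 of 71 tested passed in the mean, 7 higher and 8 lower, and 4 of 71 in late minus early. Both shares were below those of all probes, 48.5% and 12.2%. At 24 h 1 of 72 passed (all probes 1.42%), at 48 h 6 of 72 (15.8%) and at 296 h 2 of 71 (9.32%). At 148 h 5 of 72 passed, 3 higher and 2 lower, where 29.2% of all probes did. Among these the glucose transporter Slc2a1 (2.08 ± 1.14, SD, n = 2) and Pgk1 (0.85) were higher, and Hk2 (-2.67) and Aldoa (-1.14) lower. With array weights Slc2a1 and Hk2 passed at 148 h (adjusted p = 0.0245 and 0.0475), and Pgk1 and Aldoa did not (0.0502 and 0.12).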

How the data were processed

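Two-colour spotted oligonucleotide arrays compared lesioned with intact rat ganglia. The values as deposited by the authors were linear ratios of the channels, 1 per probe and array. They were read as lesioned over intact from the labelling of the dyes, since the files name no direction. How the authors scanned, corrected and normalized the arrays was not given in the sources used here. Intensities were not used here, so precision is set by how many arrays there are. Every ratio was positive, and log2 was taken with no pseudocount. Pearson's r between arrays over all probes ran from 0.028 to 0.519, with none below 0.

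Arrays were grouped by the time in their titles. Of all probes 4423 had a single symbol, 663 had none and 2 had several. All 32 probes of the group matched RefSeq by Entrez identifier with no symbol changed. An array lacking 200 or more probes was called sparse. All 23 arrays entered 1 fit by limma 3.58.1 (R 4.3.3) with 1 mean per time point. The moderated variance is shared by all times, so the standard error (SE) of a time need not follow the SD of its own arrays. Single times needed 2 arrays, and the mean over the times, late minus early and the F-test used 2327 probes measured at least that often at each time. The two-sided p-values were adjusted over all probes tested (Benjamini-Hochberg) against a threshold of 0.05. The fit was also run on simulated data in which a probe had the same spread on every array. The wider spread of the sparse arrays was not simulated, so that run could not show how the fit handles them. Alternatives were array weights, median centring, scaling, stricter and looser filters on missing values, full arrays alone, array class or replicate number as a block, genes averaged over their probes, the arrays of a time alone, the methods' t-test, each array left out and, added after seeing the data, a variance prior over all probes.

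Named were each probe of the group past the threshold in any comparison, with its values on the arrays of that time (or the lowest, median and highest over all arrays), Cox8a and Atp5me as markers of the group, the highest and lowest gene of each complex, and list genes past the threshold; for the longer lists examples are given. The members and lists were chosen with earlier results of these data known.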

Additional observations from a re-analysis of the deposited data

Results flagged for a closer look

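The effect of the lesion differed between early (4, 8 and 12 h) and late (48, 148 and 296 h) times for 3 of 28 tested probes of the group, by limma's test of the difference itself. That was 10.7%, against 12.2% of all probes. Late minus early was -0.40 on the log2 scale for Cox8a (early mean 0.35, late mean -0.05), -0.33 for Atp5me (0.51 and 0.18) and 1.20 for Cox8b (-0.04 and 1.17). The call of Atp5me was lost in 18 of 23 fits that left out 1 array and in 7 of 10 other settings, that of Cox8a with array weights (adjusted p = 0.068), and the F-test of equal times passed for none of the 28 probes by limma (5 had an unadjusted p under 0.05). For Cox8b, the values above 0.29 were all on sparse arrays. Skeletal muscle markers had a median of 2.29 on replicate 3 at 148 h (Cox8b 1.83), -0.19 on replicate 2 at 296 h (Cox8b 2.24) and 0.17 on replicate 2 at 48 h (Cox8b 1.93). On these arrays 4 of 6, 0 of 4 and 2 of 9 measured markers were above 1. With a term for array class in the fit, late minus early of Cox8b was 0.09 (limma adjusted p = 0.96). Time and array class overlap, so their parts in the difference cannot be told apart. The part of muscle RNA in it was not tested.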

How the results depend on the processing

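The limits are the number of arrays, the missing dye exchange and the sparse arrays, which hold every array at 148 h. Counts are probes of the group past the threshold. The share of all probes also moves with the setting and is not given here, so these counts do not set the group against the array. With array weights the count was 1 at 8, 12 and 24 h, 0 at 48, 148 and 296 h and 1 in late minus early, and the median was 0.064 at 4 h and -0.0020 at 12 h. Scaling the arrays gave 1 at 8, 12 and 24 h and 0 at 48, 148 and 296 h. With array class as a block 0 passed at 48, 148 and 296 h and in late minus early and 4 in the mean over the times, and the median at 296 h was -0.033. At the late times full arrays alone leave only replicate 1 at 48 h and replicate 1 at 296 h, so no count is given for them. Over full arrays Cox8b in the mean over the times turned to -0.0749, and to -0.0633 with the class as a block. Probes measured on all arrays gave 1 at 8 and 24 h, 2 at 48 h, 3 at 296 h and 2 in the F-test, with a median of 0.055 at 4 h. Probes with at least 1 array per time gave 0 at 296 h, and median centring gave 1 in the F-test. The arrays of a time alone, and the methods' t-test after Benjamini-Hochberg adjustment, gave 0 at 4, 48, 148 and 296 h, and the t-test without adjustment gave 3 at 8 h, 2 at 12 h, 3 at 18 h, 4 at 24 h, 3 at 48 h and 2 at 296 h. The cause of these changes was not tested.

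With each array left out, the count ran from 0 to 2 at 4 h, from 0 to 0 at 8, 12, 18 and 24 h, from 0 to 2 at 48 h, from 3 to 7 at 148 h, from 0 to 3 at 296 h, from 6 to 14 in the mean over the times, from 0 to 4 in late minus early and from 0 to 3 in the F-test. Without replicate 2 at 296 h, 6 passed in the mean over the times and 0 in late minus early. Without replicate 1 at 148 h, 3 passed at 148 h. Leaving out replicate 2 or 3 at 148 h left Cox8b and Cox6a2 with 1 array there and no value. The median ran from 0.042 to 0.077 at 4 h, 0.030 to 0.051 at 8 h, -0.029 to 0.129 at 12 h, 0.026 to 0.079 at 18 h, -0.023 to 0.030 at 24 h, -0.073 to 0.067 at 48 h, -0.239 to -0.095 at 148 h and -0.017 to 0.092 at 296 h.

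Replicate numbers did not pair the arrays: deviations of same-numbered arrays correlated from -0.14 to 0.12 with a median of -0.0064, and 9 of 23 arrays correlated best with their own number. With the replicate number as a block the count was 1 at 4 h, 0 at 48 h, 3 at 148 h, 0 at 296 h and 5 in the mean over the times, with a median of 0.038 at 4 h.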
